A study of Mus musculus with 12 samples.

Results

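Sox10, Cdh19, S100b, Mbp, Pmp22, Erbb3, Gfra3 and Kcna1, all known from Schwann cells, were followed in 12 bulk RNA-seq libraries of thymic epithelium sorted from mice. They were found in the count files by their Entrez gene identifiers and are 8 of 27179 counted genes. The 8 genes had been selected on expression values measured in these libraries, and the comparison that selected them is not recorded. Their differences between groups are therefore a description, given with standard errors and no p-values. The cells were cortical thymic epithelial cells (cTECs) and the mature, MHC class II high subset of the medulla (mTEChi) from C57BL/6 mice. They made 4 groups of 3 libraries: HOIL-deficient cTECs, control cTECs, HOIL-deficient mTEChi and control mTEChi. HOIL-deficient mice were Foxn1creT/+ HOILlox/lox, so a Foxn1-driven Cre acted on floxed alleles of Hoil, the gene called Rbck1 in RefSeq. Control mice were Foxn1cre+/+ Hoillox/lox, with the floxed alleles and no Cre. Foxn1 is active in thymic epithelium, so the deletion was directed to that tissue. All sorted cells were negative for CD45, TER-119 and CD31 and positive for EpCAM, an adhesion molecule of epithelia. Within that gate cTECs carried Ly51, and mTEChi bound the UEA1 lectin. Replicate 3 of both HOIL-deficient groups came from females, and the other 10 libraries came from males. The labels used here give no ages and do not say whether replicates were separate animals, so the spread between libraries may be partly technical.

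Schwann cells are the glia of peripheral nerves. They arise from the neural crest under the transcription factor Sox10 and depend on neuregulin from axons, which acts through Erbb3 paired with Erbb2. They either wrap axons in compact myelin or, as non-myelinating cells, hold axons in simple pockets of cytoplasm. The thymus is innervated, mainly by sympathetic fibres that run with blood vessels. Medullary epithelial cells also transcribe many genes of other tissues at low level, glial and neuronal genes among them.

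RefSeq promoter sequences (GRCm38.p6) were matched for 2 of the 8 genes, S100b with 1 entry and Pmp22 with 4 entries. The 250 bases upstream of S100b (chr10:76253586-76253835, plus strand) and of the most upstream Pmp22 entry (chr11:63128732-63128981, plus strand) are printed because these genes ordered the groups differently: S100b was lowest in control cTECs, and Pmp22 was higher in both cTEC groups than in either mTEChi group.
S100b: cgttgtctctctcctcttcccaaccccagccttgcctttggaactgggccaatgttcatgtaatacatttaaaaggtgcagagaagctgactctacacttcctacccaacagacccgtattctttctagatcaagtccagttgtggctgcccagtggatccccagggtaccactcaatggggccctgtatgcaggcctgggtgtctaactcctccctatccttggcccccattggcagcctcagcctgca
Pmp22: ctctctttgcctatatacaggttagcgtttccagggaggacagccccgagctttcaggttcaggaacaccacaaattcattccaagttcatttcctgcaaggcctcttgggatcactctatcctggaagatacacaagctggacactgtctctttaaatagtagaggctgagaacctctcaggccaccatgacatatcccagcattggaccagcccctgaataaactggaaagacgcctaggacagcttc
Letters of the kind that SOX factors bind were searched on both strands as ACAAAG (or CTTTGT) and ACAATG (or CATTGT). Neither was found in the S100b window or in the windows of the 4 Pmp22 entries, so no base is in capitals. Of the 250-base windows of all 32851 RefSeq promoter entries, 16.5% held the first motif, 10.7% the second and 25.2% either. GC content was 53.6% in the S100b window and 48.8% in the Pmp22 window.

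Library totals ran from 7941217 to 14274333 counts, and levels are given as counts per 1000000 counts of the library (CPM). Rbck1 averaged 25.9 ± 6.19 CPM in HOIL-deficient cTECs and 213 ± 27.4 CPM in control cTECs, and 15.3 ± 6.91 CPM in HOIL-deficient mTEChi and 117 ± 10.3 CPM in control mTEChi (SD, n = 3 each), in the direction of the labels. Epcam averaged 402 ± 31.8 CPM in HOIL-deficient cTECs, 369 ± 21.6 CPM in control cTECs, 798 ± 29.4 CPM in HOIL-deficient mTEChi and 972 ± 85.0 CPM in control mTEChi. Aire, which marks mature medullary cells, averaged 0.689 ± 0.864 CPM in HOIL-deficient cTECs, 0.846 ± 0.436 CPM in control cTECs, 928 ± 126 CPM in HOIL-deficient mTEChi and 770 ± 196 CPM in control mTEChi. All 8 Schwann genes were among the 19398 genes that passed the filter on low counts.

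Sox10 (chr15:79154913-79164490 on GRCm38.p6, as for the positions that follow), the transcription factor that specifies peripheral glia, was counted at 10.8, 17.3 and 12.9 CPM in HOIL-deficient cTECs and at 1.20, 0.378 and 0.620 CPM in control cTECs. HOIL-deficient mTEChi held 14.2, 10.9 and 15.6 CPM and control mTEChi 4.50, 2.69 and 2.43 CPM. The HOIL-deficient libraries of both cell types overlapped with each other and lay above every control library, and control mTEChi lay above control cTECs. The log2 fold change of HOIL-deficient over control cells was 4.07 (SE 0.48) in cTECs and 1.99 (SE 0.42) in mTEChi.

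Cdh19 (chr1:110888002-110977601) encodes a cadherin known from Schwann cell precursors, and had the largest log2 fold change of the 8 genes in both cell types. HOIL-deficient cTECs held 19.0, 16.2 and 20.1 CPM, from 160, 158 and 266 counts, and control cTECs held 0.184, 0.756 and 0.723 CPM, from 2, 6 and 7 counts. HOIL-deficient mTEChi held 10.2, 13.4 and 4.55 CPM, from 103, 143 and 65 counts, and control mTEChi held 0, 0.310 and 0.463 CPM, from 0, 3 and 4 counts. The control libraries of both cell types overlapped at a few counts each, and HOIL-deficient cTECs lay above HOIL-deficient mTEChi. Cdh19 differed by 4.98 (SE 0.64) on the log2 scale in cTECs and by 5.10 (SE 0.70) in mTEChi, or 5.75 without replicate 3 of control mTEChi. The transfer RNA gene n-TKctt7 lies within the locus, and whether counting used strand is not stated in these sources; reads of overlapping genes cannot be told apart.

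S100b (chr10:76253836-76261319), a calcium-binding protein used as a general marker of glia, was at 2.13, 6.15 and 4.68 CPM in HOIL-deficient cTECs and 0.276, 0.252 and 0.413 CPM in control cTECs, where it rests on 3, 2 and 4 counts. HOIL-deficient mTEChi held 7.004, 6.26 and 4.34 CPM and control mTEChi 4.71, 6.31 and 4.74 CPM. Control cTECs lay below all other libraries, and the other 3 groups overlapped. The log2 fold change was 3.64 (SE 0.56) in cTECs and 0.10 (SE 0.44) in mTEChi.

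Mbp, on chromosome 18, encodes myelin basic protein, which compacts the myelin sheath. The locus also makes Golli transcripts, known from lymphoid and other non-glial cells, and a count per gene does not separate these from the myelin transcripts; Gm52337 and Rpl21-ps8 overlap it too. HOIL-deficient cTECs held 26.5, 38.8 and 38.0 CPM and control cTECs 22.9, 22.0 and 19.0 CPM, with a small gap between the groups. HOIL-deficient mTEChi held 69.7, 34.3 and 52.3 CPM and control mTEChi 77.0, 76.6 and 65.7 CPM, and these groups overlapped. The log2 fold change of Mbp was 0.60 (SE 0.25) in cTECs and -0.55 (SE 0.24) in mTEChi, opposite in sign.

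Pmp22 (chr11:63128982-63159547) encodes a membrane protein of compact peripheral myelin that epithelia and fibroblasts also make. HOIL-deficient cTECs held 175, 222 and 211 CPM and control cTECs 136, 119 and 103 CPM. HOIL-deficient mTEChi held 34.2, 32.2 and 33.3 CPM and control mTEChi 2.87, 6.41 and 7.06 CPM. The groups formed 4 separate steps, highest in HOIL-deficient cTECs, then control cTECs, HOIL-deficient mTEChi and control mTEChi. Pmp22 differed by 0.67 (SE 0.22) on the log2 scale in cTECs and by 2.56 (SE 0.25) in mTEChi.

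Erbb3 (chr10:128567523-128589635, with the microRNA gene Mir6917 inside it) is the receptor through which neuregulin keeps Schwann cells alive, and epithelia also make it. HOIL-deficient cTECs held 3.32, 4.71 and 3.02 CPM and control cTECs 1.29, 1.64 and 0.930 CPM, with no overlap. HOIL-deficient mTEChi held 3.06, 3.08 and 12.05 CPM and control mTEChi 5.84, 9.93 and 5.21 CPM. Both male HOIL-deficient mTEChi libraries lay under all control mTEChi libraries, and the female library lay above them all. The log2 fold change of Erbb3 was 1.43 (SE 0.58) in cTECs and -0.25 (SE 0.53) in mTEChi, and in mTEChi it was -1.22 with male libraries only.

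Gfra3, on chromosome 18 with Gm52376 overlapping it, encodes the receptor for artemin, which signals through Ret in sensory and sympathetic neurons and is also carried by Schwann cells and their precursors. HOIL-deficient cTECs held 29.7, 34.8 and 39.4 CPM and control cTECs 2.21, 0.882 and 4.86 CPM. HOIL-deficient mTEChi held 69.4, 59.5 and 70.8 CPM and control mTEChi 24.1, 30.5 and 38.0 CPM. Within each cell type the HOIL-deficient libraries lay above the control libraries, HOIL-deficient cTECs overlapped with control mTEChi, and control cTECs were lowest. Gfra3 differed by 3.60 (SE 0.38) on the log2 scale in cTECs and by 1.05 (SE 0.33) in mTEChi. The cTEC value was 4.32 without replicate 3 of control cTECs, the highest library of its group.

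Kcna1 (chr6:126636463-126645801) encodes a voltage-gated potassium channel known from axons beside the node of Ranvier and recorded in Schwann cells. HOIL-deficient cTECs held 65.1, 56.9 and 65.1 CPM and control cTECs 7.46, 16.4 and 16.1 CPM. HOIL-deficient mTEChi held 29.99, 36.0 and 29.2 CPM and control mTEChi 4.40, 5.17 and 5.09 CPM. The groups again formed 4 separate steps, here in the order HOIL-deficient cTECs, HOIL-deficient mTEChi, control cTECs and control mTEChi. The log2 fold change of Kcna1 was 2.15 (SE 0.26) in cTECs and 2.64 (SE 0.28) in mTEChi.

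**Figure D1:**
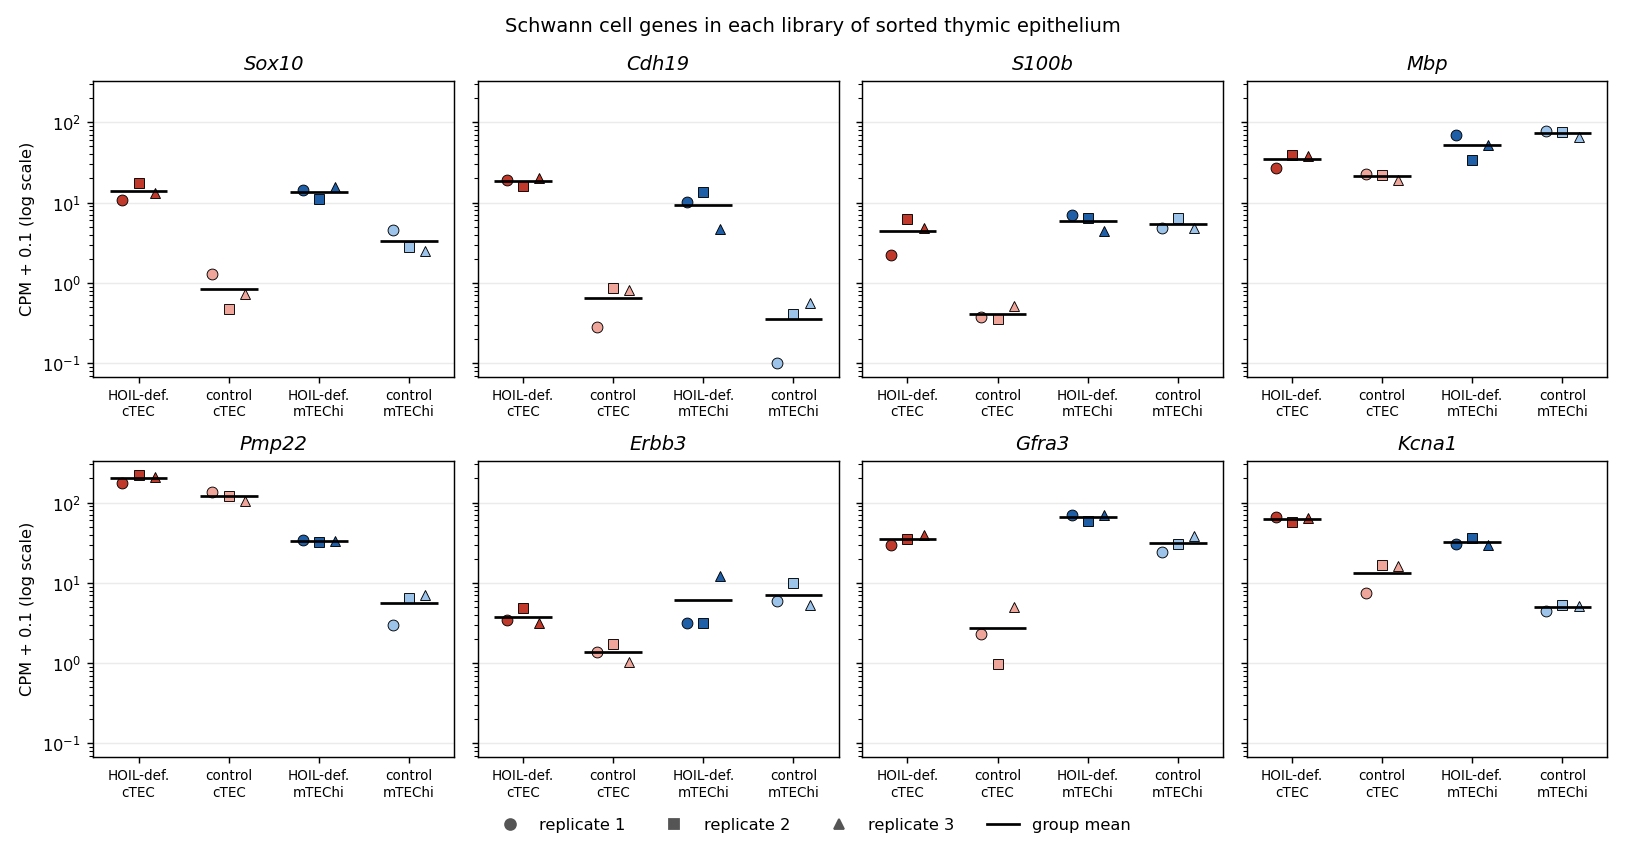
Level of the 8 genes in each library, as CPM + 0.1 on a logarithmic axis, with 1 point per library, the marker shape giving the replicate and a line at the group mean. Cdh19, Sox10, Pmp22, Gfra3 and Kcna1 lie higher in the HOIL-deficient libraries of each cell type, and S100b lies apart from the other groups in control cTECs, at 0.252 to 0.413 CPM.

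Set side by side, Cdh19, Sox10, Gfra3, Kcna1 and Pmp22 were higher without overlap in HOIL-deficient cells of both cell types. S100b, Erbb3 and Mbp were higher without overlap in HOIL-deficient cTECs and overlapped between the mTEChi groups. In cTECs all 8 genes were higher without overlap, as were 15.9% of all tested genes. In mTEChi Cdh19, Sox10, Gfra3, Kcna1 and Pmp22, 5 of the 8, were higher without overlap, as were 23.8% of all tested genes. Since values of these libraries selected the genes, nothing is read from these counts. In bulk libraries, more cells of a type and more RNA per cell cannot be told apart.

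**Figure D2:**
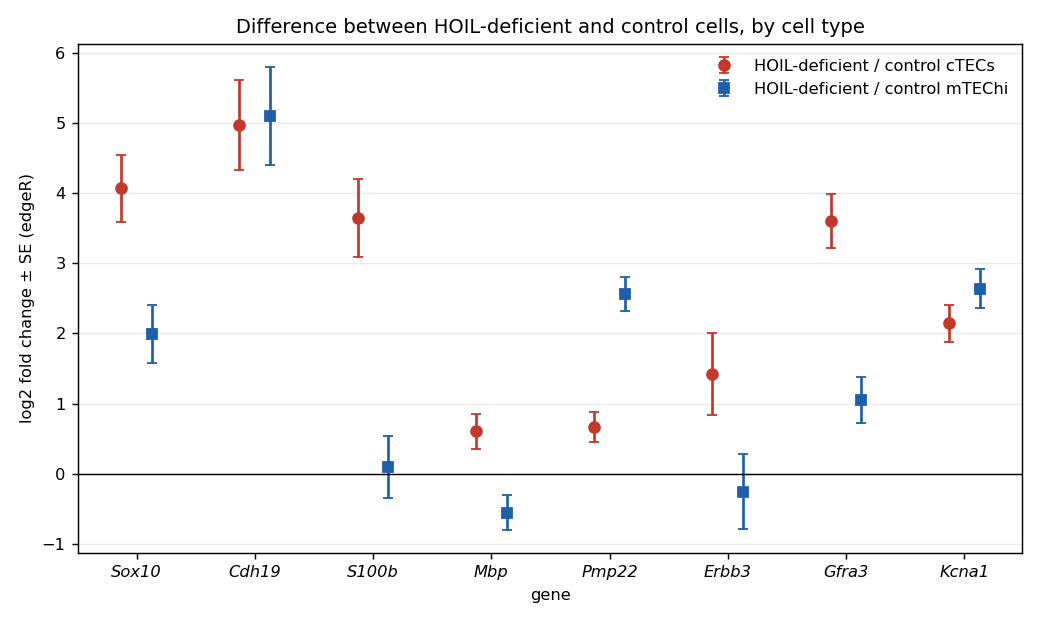
Log2 fold change of HOIL-deficient over control cells for each of the 8 genes, with its standard error, in cTECs and in mTEChi. Cdh19 lies near 5 in both cell types, S100b at 3.64 in cTECs and 0.10 in mTEChi, and Pmp22 at 0.67 in cTECs and 2.56 in mTEChi.

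The mTEChi effect minus the cTEC effect, on the log2 scale, was -3.54 (SE 0.71) for S100b, -2.54 (SE 0.49) for Gfra3, -2.08 (SE 0.62) for Sox10, -1.68 (SE 0.79) for Erbb3 and -1.16 (SE 0.35) for Mbp. It was 1.89 (SE 0.32) for Pmp22, 0.49 (SE 0.37) for Kcna1 and 0.12 (SE 0.80) for Cdh19. The Erbb3 value was -2.78 with male libraries only and -2.70 without replicate 3 of HOIL-deficient mTEChi. The Gfra3 value was -3.26 without replicate 3 of control cTECs, and the Cdh19 value was -0.49 without replicate 1 and 0.74 without replicate 3 of control mTEChi. The control libraries, which also enter these differences, were themselves unlike. Control mTEChi lay above control cTECs by a log2 fold change of 4.10 (SE 0.56) for S100b, 3.61 (SE 0.39) for Gfra3, 2.52 (SE 0.59) for Erbb3, 2.18 (SE 0.48) for Sox10 and 1.87 (SE 0.25) for Mbp, each without overlap. The value was -4.38 (SE 0.26) for Pmp22 and -1.34 (SE 0.27) for Kcna1, which were lower in control mTEChi without overlap, and -0.98 (SE 0.83) for Cdh19, which overlapped. Of all tested genes 39.6% were higher and 31.6% lower without overlap in control mTEChi, and 64.2% passed the edgeR test at an adjusted p of 0.05, 37.8% as higher and 26.4% as lower.

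Divided by gene length, the levels of different genes could be set beside each other. In HOIL-deficient cTECs Pmp22 was at 113 ± 13.8 and Gfra3 at 17.4 ± 2.42 CPM per kilobase (SD, n = 3). Kcna1 at 6.95 ± 0.530, Cdh19 at 6.02 ± 0.652, Mbp at 5.13 ± 1.02 and Sox10 at 5.04 ± 1.23 CPM per kilobase each overlapped with the next in this order, and S100b at 2.60 ± 1.22 and Erbb3 at 0.916 ± 0.225 CPM per kilobase lay below them without overlap. In control cTECs Pmp22 was at 66.3 ± 8.98, Mbp at 3.17 ± 0.306, Kcna1 at 1.48 ± 0.566 and Gfra3 at 1.33 ± 1.02 CPM per kilobase, with overlap between Kcna1 and Gfra3. Below them Erbb3, Sox10, S100b and Cdh19 overlapped, with means from 0.182 to 0.3197 CPM per kilobase. The order was thus led by Pmp22 in both cTEC groups.

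In both mTEChi groups Gfra3 came first. HOIL-deficient mTEChi held Gfra3 at 33.4 ± 3.09, Pmp22 at 18.5 ± 0.558, Mbp at 7.76 ± 2.64 and Sox10 at 4.999 ± 0.877 CPM per kilobase, with overlap between Mbp and Sox10. Kcna1 at 3.54 ± 0.418, S100b at 3.53 ± 0.826, Cdh19 at 3.06 ± 1.46 and Erbb3 at 1.51 ± 1.29 CPM per kilobase followed, each overlapping with the next. Control mTEChi held Gfra3 at 15.5 ± 3.49 and Mbp at 10.9 ± 0.952 CPM per kilobase. S100b at 3.16 ± 0.550, Pmp22 at 3.02 ± 1.25, Erbb3 at 1.74 ± 0.638 and Sox10 at 1.18 ± 0.417 CPM per kilobase each overlapped with the next, above Kcna1 at 0.545 ± 0.0471 and Cdh19 at 0.0844 ± 0.0772 CPM per kilobase.

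The count ratio of a pair of genes within a library does not depend on how the library is scaled. Kcna1 had 3.44, 3.51 and 3.24 counts per Cdh19 count in HOIL-deficient cTECs, with exact 95% intervals of 2.88 to 4.12, 2.94 to 4.22 and 2.82 to 3.74, which overlapped. Control cTECs had ratios of 40.5, 21.7 and 22.3, on 2, 6 and 7 Cdh19 counts. In HOIL-deficient mTEChi the ratio was 2.95 (2.35 to 3.73) and 2.70 (2.22 to 3.29) in the male libraries and 6.42 (4.93 to 8.47) in the female library. Control mTEChi had 16.7 and 11.0 in replicates 2 and 3, and no Cdh19 count in replicate 1.

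Sox10 had 0.569, 1.07 and 0.643 counts per Cdh19 count in HOIL-deficient cTECs, and 1.40, 0.818 and 3.42 in HOIL-deficient mTEChi. The female mTEChi library again had the highest ratio, with 65 Cdh19 counts and 222 Sox10 counts. With 1 library, the sex of the mouse and other properties of that sample cannot be told apart. With male libraries only, the log2 fold change of Cdh19 was 4.92 in cTECs and 5.44 in mTEChi. These intervals cover counting error only.

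Further genes of the Schwann lineage came from 2 lists. All lists used here were chosen with earlier results of these data known, and most genes named from them had the smallest p. Their counts, medians and p-values therefore describe these libraries and are not independent support. Of 14 genes of precursors and non-myelinating Schwann cells 13 were tested, and 7 rose and none fell in HOIL-deficient cTECs (median log2 fold change 3.23, against -0.02 over all tested genes). A gene rose or fell where its edgeR adjusted p was under 0.05, as 12.1% of all tested genes did in cTECs, 6.06% as higher and 6.02% as lower. Matn2, a matrix protein of peripheral nerve, was at 142 ± 22.7 CPM in HOIL-deficient cTECs and 13.3 ± 6.06 CPM in control cTECs, a log2 fold change of 3.31 (SE 0.30, edgeR adjusted p = 4.49e-05). Fabp7, a fatty acid binding protein of immature glia, was at 7.20 ± 2.08 CPM in HOIL-deficient cTECs and 0.234 ± 0.124 CPM in control cTECs, a log2 fold change of 4.73 (SE 0.46, edgeR adjusted p = 5.57e-05). Scn7a, a sodium channel recorded in non-myelinating Schwann cells, rose by 3.38 (SE 0.41, edgeR adjusted p = 2.95e-04) on the log2 scale.

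Foxd3, a factor of early neural crest, had 68 counts over the HOIL-deficient cTEC libraries and 2 over the control cTEC libraries, a ratio of 30.8, with an exact 95% counting interval of 8.20 to 259 after scaling to library totals (edgeR adjusted p = 0.00166). L1cam and Gap43, which growing axons and non-myelinating Schwann cells make, are named after their values were seen. L1cam rose by 3.71 (SE 0.50, edgeR adjusted p = 5.91e-04) and Gap43 by 3.24 (SE 0.70, edgeR adjusted p = 0.00989) on the log2 scale. Gap43 missed the threshold when only the cTEC libraries were fitted (edgeR adjusted p = 0.0577), and Matn2, Fabp7, Scn7a, Foxd3 and L1cam passed under all 18 alternatives run.

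In HOIL-deficient mTEChi 4 of the 13 tested genes of that list rose and none fell (median 0.82, against -0.03 over all tested genes). Of all tested genes 19.9% passed in mTEChi, 11.3% as higher and 8.59% as lower. Higher calls made 56.8% of those calls, and 46.2% with DESeq2. Matn2 rose by 3.58 (SE 0.32, edgeR adjusted p = 4.39e-05) and Scn7a by 2.68 (SE 0.41, edgeR adjusted p = 9.51e-04) on the log2 scale. Ednrb, an endothelin receptor of neural crest cells that other cells also carry, rose to 10.5 ± 7.57 CPM in HOIL-deficient mTEChi, against 1.33 ± 0.532 CPM in control mTEChi, by 2.92 (SE 0.47, edgeR adjusted p = 0.00126). Fabp7 was at 28.0 ± 1.52 CPM in HOIL-deficient mTEChi and 14.99 ± 3.43 CPM in control mTEChi and did not pass, with a log2 fold change of 0.82 (SE 0.31, edgeR adjusted p = 0.0733). Foxd3 did not pass either, at 4.29 ± 0.554 CPM in HOIL-deficient mTEChi and 4.58 ± 0.828 CPM in control mTEChi, with a log2 fold change of -0.17 (SE 0.48, edgeR adjusted p = 0.843).

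Of 17 listed myelin genes 16 were tested, and 4 rose and none fell in HOIL-deficient cTECs (median log2 fold change 0.35, or 1.15 without the 4 genes at or under 3 counts in both groups). Cryab, a small heat shock protein of many tissues, rose by 1.10 (SE 0.21, edgeR adjusted p = 0.00504) on the log2 scale. Mal, a membrane protein of myelin and epithelia, rose by 2.86 (SE 0.57, edgeR adjusted p = 0.00633), and Gjc3, a connexin of glia, by 3.03 (SE 0.63, edgeR adjusted p = 0.00757). The edgeR adjusted p of Mal was 0.0691 when only the cTEC libraries were fitted. Pmp2, Gjb1, Cldn19 and Ugt8a, a lipid carrier, a connexin, a claudin and a lipid enzyme of myelinating cells, had no count in the 6 cTEC libraries, which allows a mean of up to 0.0954 CPM in HOIL-deficient cTECs and 0.105 CPM in control cTECs (3 counts over the group, counting error only).

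In HOIL-deficient mTEChi 1 myelin gene rose and 1 fell (median -0.13). Cnp, an enzyme of myelinating glia that interferon also raises in other cells, was at 466 ± 73.3 CPM in HOIL-deficient mTEChi and 224 ± 83.4 CPM in control mTEChi, a log2 fold change of 1.02 (SE 0.22, edgeR adjusted p = 0.00622). Pmp2 fell to 28.4 ± 5.12 CPM in HOIL-deficient mTEChi, against 56.9 ± 3.64 CPM in control mTEChi, a log2 fold change of -1.07 (SE 0.25, edgeR adjusted p = 0.0144). Its edgeR adjusted p was 0.0506 without replicate 3 of HOIL-deficient mTEChi, 0.0528 with male libraries only and 0.0584 without replicate 1 of control mTEChi. Between the control cell types 14 of the 16 tested myelin genes were higher in mTEChi and none lower (median 4.28, against 0.24 over all tested genes). Of all tested genes 37.8% passed as higher and 26.4% as lower in that comparison. Pmp2 was at least 540.0-fold higher in control mTEChi than in control cTECs, where it had no count. Dhh, the hedgehog ligand that Schwann cells make, was at 46.5 ± 13.0 CPM in control mTEChi and 2.16 ± 1.53 CPM in control cTECs, a log2 fold change of 4.45 (SE 0.44, edgeR adjusted p = 1.28e-06).

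**Figure D3:**
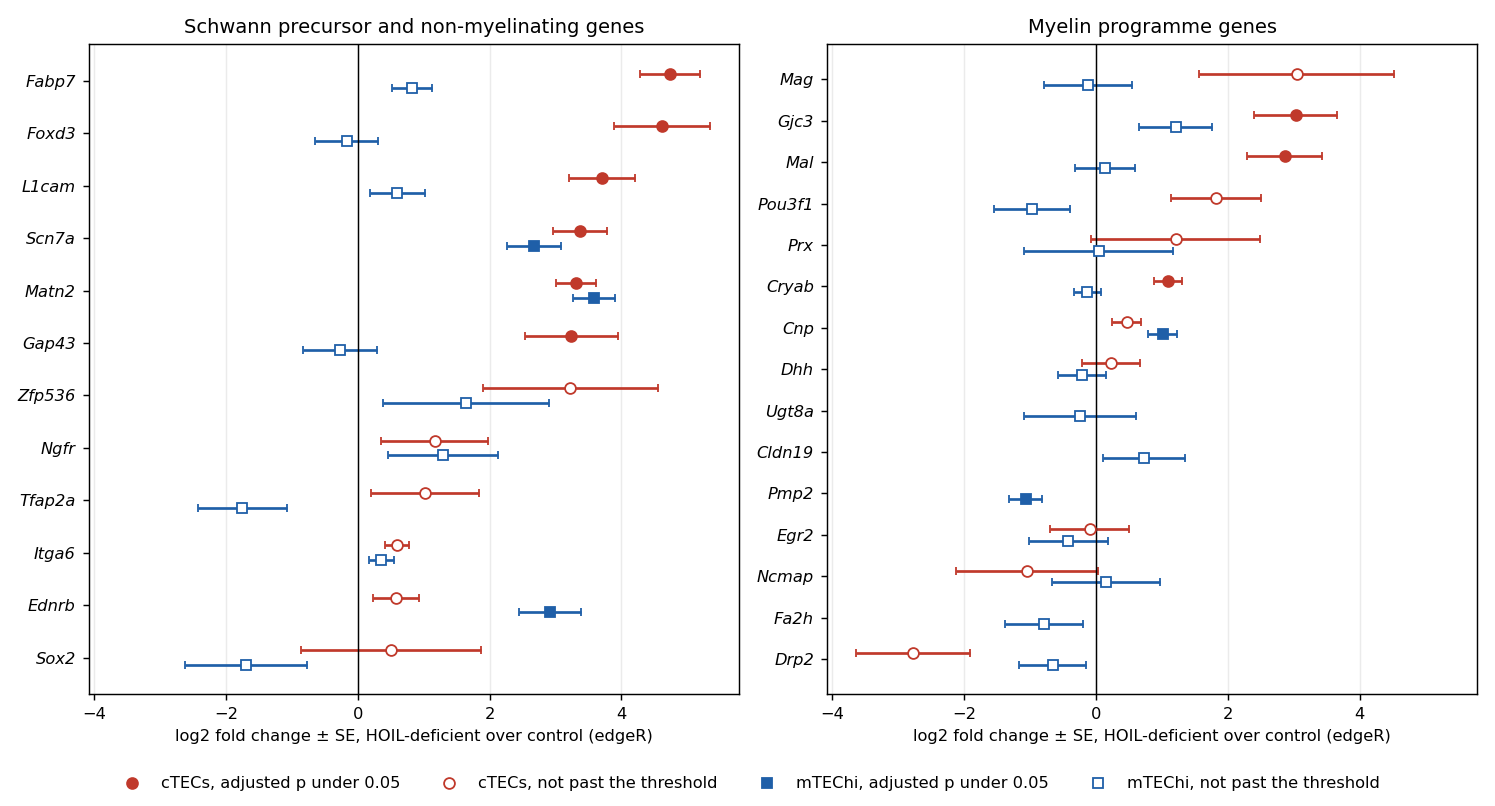
Log2 fold change with standard error of HOIL-deficient over control cells for 12 precursor and 15 myelin genes of the 2 Schwann lists, in cTECs and in mTEChi, filled where the edgeR adjusted p was under 0.05. Genes at or under 3 counts in both cTEC groups have no cTEC point, and 6 precursor and 3 myelin genes are filled in cTECs. The fitted cTEC values of Foxd3, Sox2, Mag and Drp2 depend on the prior count, since 1 of the groups held 1 to 3 counts.

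Summed over the 31 genes of both lists, the level was 699 to 859 CPM in HOIL-deficient cTECs and 290 to 343 CPM in control cTECs, a ratio of means of 2.41. It was 928 to 1111 CPM in HOIL-deficient mTEChi and 568 to 749 CPM in control mTEChi, a ratio of 1.57. Without Cnp, which other cells also make, the sum was 544 to 585 CPM in HOIL-deficient mTEChi and 421 to 437 CPM in control mTEChi, a ratio of 1.30, and in cTECs the ratio was 2.66. The sum without Cnp was added after the data were seen. The 2 lists were unlike in mTEChi. The precursor list summed to 312 to 326 CPM in HOIL-deficient and 149 to 153 CPM in control mTEChi, a ratio of 2.10. The myelin list, with Cnp, summed to 602 to 799 CPM and 418 to 596 CPM, a ratio of 1.41. Cnp alone was 526.2, 384.5 and 488.4 CPM of this in HOIL-deficient mTEChi and 146.5, 312.3 and 212.9 CPM in control mTEChi. Of the 16 tested myelin genes 7 had a positive log2 fold change in mTEChi. For the mTEChi effect minus the cTEC effect, 6 genes of both lists passed as lower and 1 as higher, where 9.84% of all tested genes passed, 5.97% as higher and 3.86% as lower. Higher calls made 60.7% of those calls, 45.0% with RLE size factors and 46.4% with DESeq2.

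Ligands and partners of the receptors were followed next. Of 7 neuregulin and ErbB genes 5 were tested, and none passed in either comparison of HOIL-deficient with control cells by edgeR or DESeq2; at an unadjusted p under 0.05, edgeR gave 0 in cTECs and 1 (Nrg4) in mTEChi. Nrg1, the axonal ligand that reaches Erbb3, was at 6.71 ± 0.768 CPM in HOIL-deficient cTECs and 5.22 ± 1.20 CPM in control cTECs, and at 54.9 ± 7.30 CPM in HOIL-deficient mTEChi and 44.7 ± 7.88 CPM in control mTEChi. Erbb2, the partner that Erbb3 needs to signal, was at 16.97 ± 6.50 CPM in HOIL-deficient cTECs and 17.7 ± 6.23 CPM in control cTECs, and at 74.4 ± 7.51 CPM in HOIL-deficient mTEChi and 69.3 ± 13.0 CPM in control mTEChi. Both genes were higher in control mTEChi than in control cTECs, with a log2 fold change of 3.18 (SE 0.24, edgeR adjusted p = 1.03e-07) for Nrg1 and 2.07 (SE 0.29, edgeR adjusted p = 2.98e-05) for Erbb2. Erbb4, another neuregulin receptor, had no count in cTECs and averaged 0.164 ± 0.283 CPM in HOIL-deficient mTEChi and 0.310 ± 0.373 CPM in control mTEChi.

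Artn, which encodes the ligand of Gfra3, averaged 0.158 ± 0.274 CPM in HOIL-deficient cTECs, 0.184 ± 0.0823 CPM in control cTECs, 0.296 ± 0.513 CPM in HOIL-deficient mTEChi and 1.02 ± 0.645 CPM in control mTEChi, too low to be tested. Ret, the signalling chain of this receptor family, was at 0.961 ± 0.155 CPM in HOIL-deficient cTECs and 0.378 ± 0.338 CPM in control cTECs and did not pass, with a log2 fold change of 1.30 (SE 0.67, edgeR adjusted p = 0.233). Of 7 tested genes of the family, 2 rose in HOIL-deficient cTECs, 1 rose in HOIL-deficient mTEChi and none fell. Gfra2, the neurturin receptor, rose by 2.51 (SE 0.44, edgeR adjusted p = 0.00300) and Ncam1, an adhesion molecule of nerve and non-myelinating Schwann cells, by 2.75 (SE 0.48, edgeR adjusted p = 0.00282) on the log2 scale in cTECs. Gfra1, the GDNF receptor, rose by 1.44 (SE 0.40, edgeR adjusted p = 0.0225) in mTEChi. This call was lost with male libraries only (edgeR adjusted p = 0.0894), without replicate 1 or 3 of HOIL-deficient mTEChi (0.0518 and 0.0890) and without replicate 1 or 3 of control mTEChi (0.108 and 0.0916).

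Of 12 listed genes for channels of the Kcna1 family and their partners, 11 were tested. In HOIL-deficient cTECs 2 rose and 1 fell, and in HOIL-deficient mTEChi 1 rose and 1 fell. Kcna6, a channel subunit of the family, had 290 counts in HOIL-deficient cTECs and 2 in control cTECs, a ratio of 131, with an exact 95% counting interval of 36.0 to 1089 (edgeR adjusted p = 2.20e-04). It was at 6.15 ± 2.58 CPM in HOIL-deficient mTEChi and 0.837 ± 0.490 CPM in control mTEChi, a log2 fold change of 2.83 (SE 0.57, edgeR adjusted p = 0.00452). Kcnab1, an auxiliary subunit, rose by 2.04 (SE 0.58, edgeR adjusted p = 0.0360) in cTECs. Kcna3, a channel known from T cells, was at 6.32 ± 2.24 CPM in HOIL-deficient cTECs and 33.1 ± 18.0 CPM in control cTECs, a log2 fold change of -2.49 (SE 0.66, edgeR adjusted p = 0.0259). The Kcnab1 call was lost in 6 of 18 alternatives, including those without replicate 2 of HOIL-deficient cTECs, replicate 2 or 3 of control cTECs or replicate 3 of control mTEChi, with an edgeR adjusted p of up to 0.139. The Kcna3 call was lost in 5 of 18, those with male libraries only or without replicate 1 or 2 of HOIL-deficient cTECs or replicate 1 or 3 of control cTECs, with an edgeR adjusted p of up to 0.0885. Lgi4, a protein secreted by Schwann cells that acts through Adam22 in myelination, fell to 20.1 ± 10.1 CPM in HOIL-deficient mTEChi, against 62.9 ± 22.2 CPM in control mTEChi, a log2 fold change of -1.73 (SE 0.38, edgeR adjusted p = 0.00687). Adam22 did not pass in either cell type, at 5.14 ± 4.53 CPM in HOIL-deficient cTECs and 2.90 ± 0.912 CPM in control cTECs, and at 4.90 ± 3.28 CPM in HOIL-deficient mTEChi and 2.91 ± 1.27 CPM in control mTEChi.

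Genes were also ranked by how near their profile over the 12 libraries was to that of Cdh19, as the mean absolute difference of mean-centred log2 CPM over 19397 genes, a description with no test. The 6 nearest named genes were Matn2 at rank 1 (0.70), Aspa at rank 4 (0.88), Cmtm5 at rank 6 (0.94), Prss23 at rank 7 (0.95), Scn7a at rank 8 (0.99) and Clec14a at rank 9 (1.02). Of the other 7 genes followed here Kcna1 came at rank 14 (1.08), Sox10 at rank 101 (1.40), Pmp22 at rank 320 (1.64), Gfra3 at rank 798 (1.82), S100b at rank 920 (1.85), Erbb3 at rank 6920 (2.26) and Mbp at rank 7590 (2.28). Matn2 was at 130, 128 and 168 CPM in HOIL-deficient cTECs and 20.3, 10.6 and 9.09 CPM in control cTECs, and at 68.8, 44.4 and 69.6 CPM in HOIL-deficient mTEChi and 3.68, 5.90 and 5.09 CPM in control mTEChi. Cmtm5, a membrane protein known from oligodendrocytes, was at 5.68, 4.71 and 8.45 CPM in HOIL-deficient cTECs and 0.0921, 0.126 and 0.413 CPM in control cTECs. Clec14a, known from endothelium, was at 22.4, 18.8 and 17.8 CPM in HOIL-deficient cTECs and 4.05, 1.76 and 1.86 CPM in control cTECs. The nearest genes thus included some known from glia and one known from vessels.

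**Figure D4:**
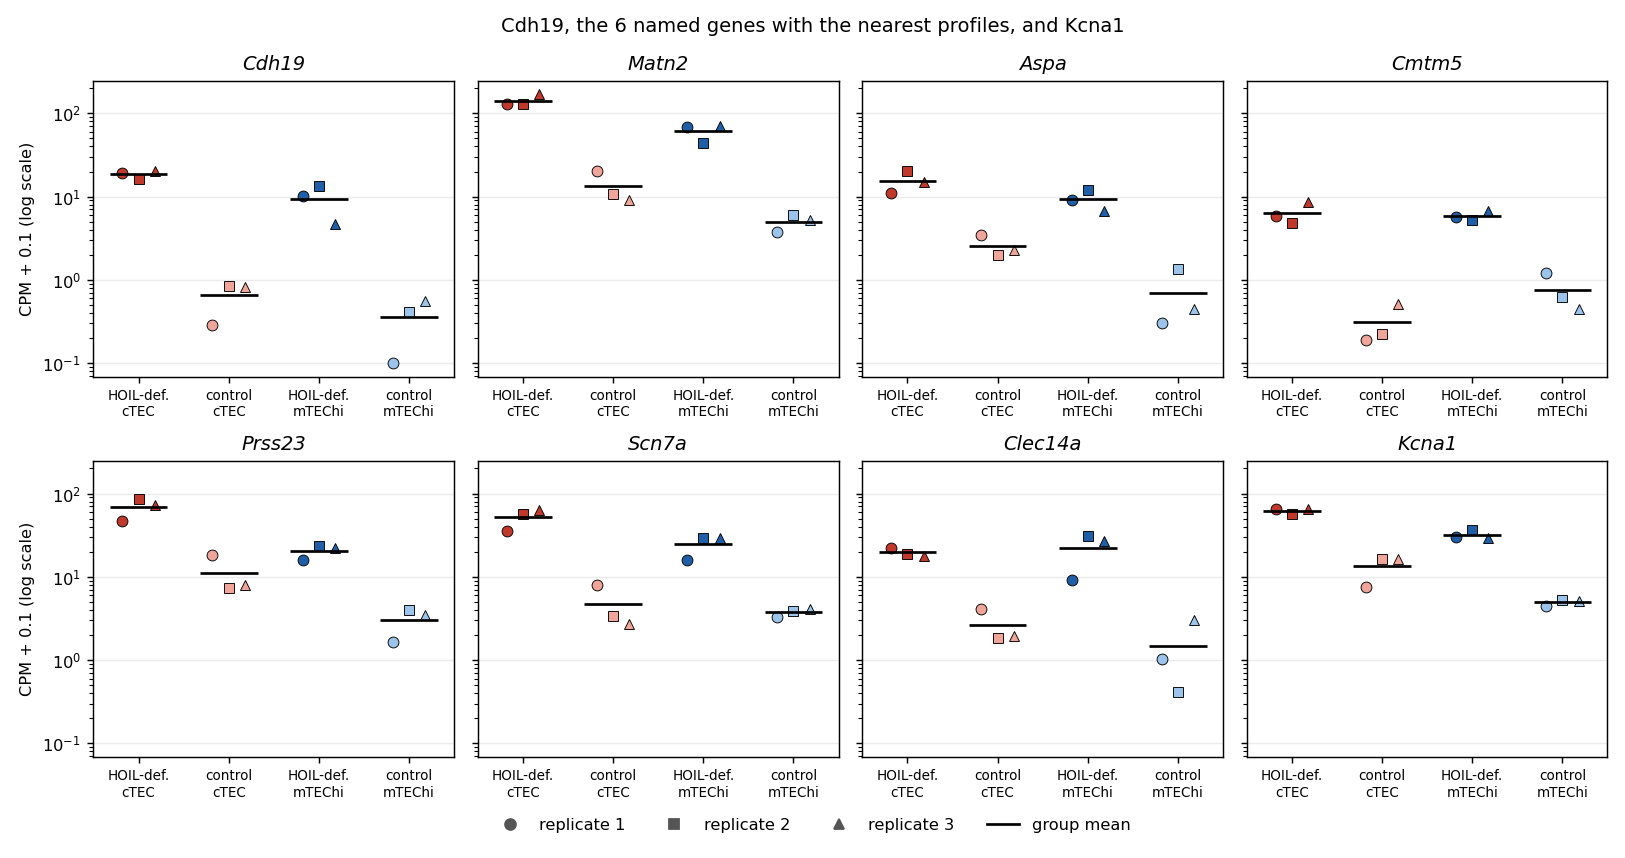
CPM + 0.1 per library on a logarithmic axis for Cdh19, the 6 nearest named genes and Kcna1, with 1 point per library and a line at the group mean. All 8 lie higher in the HOIL-deficient libraries than in the control libraries of the same cell type, as Clec14a does with 9.08, 31.0 and 26.5 CPM in HOIL-deficient mTEChi and 0.921, 0.310 and 2.89 CPM in control mTEChi.

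Markers of other cell types moved in the same libraries. Of 15 endothelial genes 14 rose in HOIL-deficient cTECs and 11 in HOIL-deficient mTEChi, with none lower and none at 0 in any group. Their summed level was 217 to 622 CPM in HOIL-deficient cTECs and 45.8 to 92.3 CPM in control cTECs, and 337 to 901 CPM in HOIL-deficient mTEChi and 146 to 196 CPM in control mTEChi. Of 15 fibroblast and pericyte genes 10 rose in cTECs and 4 in mTEChi, with none lower and none at 0. They summed to 3467 to 4891 CPM in HOIL-deficient cTECs and 502 to 1810 CPM in control cTECs, and to 903 to 1138 CPM in HOIL-deficient mTEChi and 445 to 514 CPM in control mTEChi. Between HOIL-deficient and control libraries of the same cell type both sums were thus higher without overlap, as Cdh19 was. So were 15.9% of all tested genes in cTECs and 23.8% in mTEChi. Within a group the order of libraries was not always shared. HOIL-deficient cTEC replicate 3 had the highest Cdh19 level of its group (20.1 CPM), the lowest endothelial sum (217 CPM) and the highest fibroblast and pericyte sum (4891 CPM).

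Of 12 adipocyte genes 11 were tested, and 7 rose in cTECs and 3 in mTEChi, with none lower. Their sum was 453 to 788 CPM in HOIL-deficient cTECs and 172 to 203 CPM in control cTECs, with Lep and Cidea at 0 in HOIL-deficient cTECs and Lep and Plin1 at 0 in control cTECs. In mTEChi it was 1449 to 1781 CPM in HOIL-deficient and 1095 to 2067 CPM in control libraries. Fabp4 alone made most of these mTEChi sums. It was at 774, 1348 and 1177 CPM in HOIL-deficient mTEChi and 1913, 825 and 1109 CPM in control mTEChi. Of the 11 tested adipocyte genes 10 had a positive log2 fold change in mTEChi, as had 9446 of all 19398 tested genes. Of 12 thymocyte genes 11 fell in HOIL-deficient cTECs and none rose, with sums of 407 to 784 CPM there and 974 to 3584 CPM in control cTECs. In mTEChi no thymocyte gene passed by edgeR or DESeq2, or at an unadjusted p under 0.05, with sums of 151 to 279 CPM in HOIL-deficient mTEChi and 129 to 199 CPM in control mTEChi. Of 11 tested dendritic cell and macrophage genes 1 rose in cTECs (Lyz2), with sums of 33.4 to 111 CPM in HOIL-deficient cTECs and 22.7 to 35.1 CPM in control cTECs. In mTEChi none passed by edgeR, 1 (Fcer1g) had an unadjusted p under 0.05, and DESeq2 called 1, the same gene, as lower. Of 14 thymic epithelial genes 1 rose and 5 fell in cTECs, and 3 rose and 1 fell in mTEChi. They summed to 28380 to 29990 CPM in HOIL-deficient cTECs and 42080 to 47300 CPM in control cTECs, lower without overlap. In mTEChi they summed to 16630 to 19330 CPM in HOIL-deficient and 12150 to 15010 CPM in control libraries, higher without overlap. The part of these cell types in the levels of the Schwann genes was not tested.

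**Figure D5:**
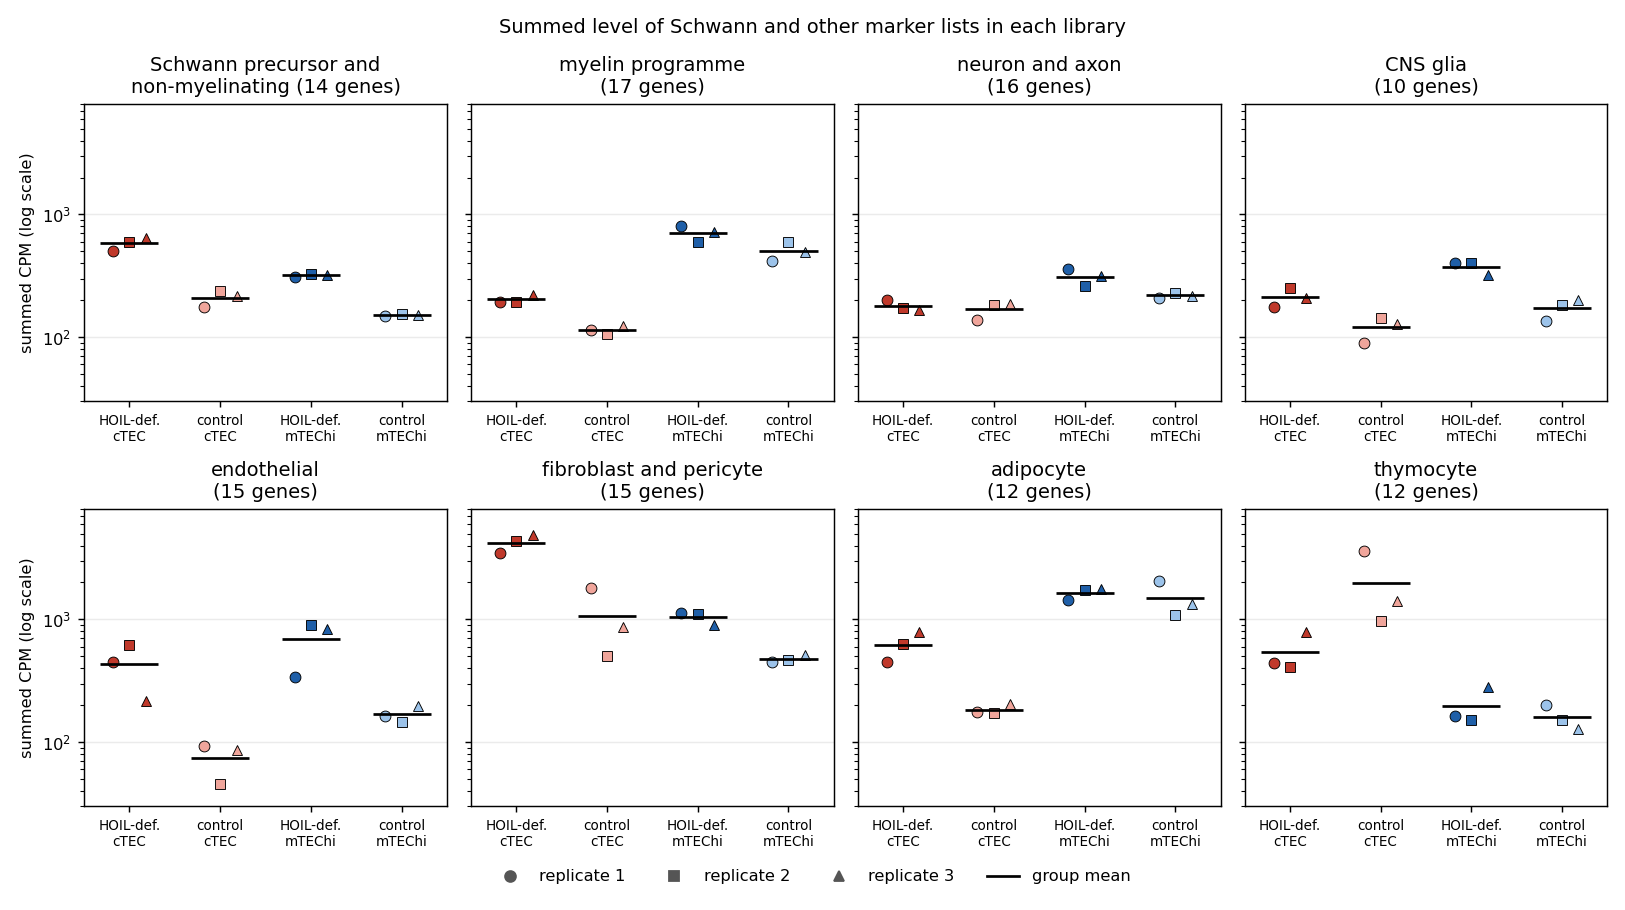
Summed CPM of 8 marker lists in each library on a logarithmic axis, with 1 point per library and a line at the group mean. The Schwann precursor, myelin, central glia, endothelial and fibroblast sums lie higher in HOIL-deficient than in control libraries of the same cell type. The thymocyte sum lies lower in HOIL-deficient cTECs than in control cTECs.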

How the data were processed

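Counts per gene were obtained from deposited per-sample files of 12 libraries, with featureCounts and mm10 named in the submitters' processing notes without versions; strandedness is not given in the sources used here. Per the labels, RNA of sorted cells was amplified with SMART-Seq v4, made into Nextera XT libraries and read paired-end on a NextSeq 500. Amplification without molecular identifiers was not corrected for, so counts are not independent molecules. The deposited counts were used as they are, with 12 columns of a joined table left out. Symbols came from RefSeq (GRCm38.p6) for 25275 of 27179 identifiers, and the 1904 without one held 4.53% to 6.10% of counts.

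Differences were fitted with edgeR 4.0.16 and limma 3.58.1 in R 4.3.3 (filterByExpr, TMM, robust quasi-likelihood, all 12 libraries, 1 coefficient per group), with Benjamini-Hochberg adjustment over 19398 genes and a threshold of 0.05. Levels are CPM on library totals. Exact tests used Python 3.11.15 and SciPy 1.17.1. The fitting code was tested on simulated data. The genes followed and all lists were chosen with earlier results of these data known. Besides the genes followed, each list contributed up to 4 genes with the smallest p in the cTEC comparison and up to 2 each in the other 3 comparisons, with receptor partners named whatever their p. Alternatives were RLE size factors, DESeq2 1.42.0, no filter on low counts, only the groups compared, a replicate block, male libraries only and leaving out each library. Whether replicate numbers pair cTECs and mTEChi of the same mouse is not known, and the main fit treated all libraries as independent. A tested gene of each Schwann list is not reported here by name, but is in the counts, medians and sums. Genes whose group held 1 to 3 counts are given as count ratios with exact 95% intervals, since a fitted value depends on the prior count. These intervals pool the libraries of a group and cover counting error only. They leave out the spread between libraries and the amplification, so they are too narrow.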

Additional observations from a re-analysis of the deposited data

Results flagged for a closer look

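For 15 of the genes named outside the 8 followed, the mTEChi effect minus the cTEC effect of HOIL deficiency passed in the edgeR fit. They were kept because they passed, and most were first named for a small p. Their passing is therefore no independent support. Of all tested genes 9.84% passed, 5.97% as higher and 3.86% as lower. Some lists were not searched in this way. Among these, 7 of 12 tested thymocyte genes passed as higher, and 6 of 11 tested adipocyte genes as lower and 1 as higher. Negative values mean a smaller or more negative effect in mTEChi.

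Among Schwann precursor genes the difference was -3.91 (SE 0.56, edgeR adjusted p = 0.00175) for Fabp7, -4.78 (SE 0.89, edgeR adjusted p = 0.00663) for Foxd3 and 2.34 (SE 0.59, edgeR adjusted p = 0.0240) for Ednrb, the endothelin receptor. It was -3.11 (SE 0.65, edgeR adjusted p = 0.0108) for L1cam and -3.50 (SE 0.90, edgeR adjusted p = 0.0268) for Gap43, which was lost in 5 of 17 alternatives with an edgeR adjusted p of up to 0.0605. The value of Foxd3 rests on 2 counts in control cTECs. Without replicate 1 or 3 of control mTEChi the edgeR adjusted p of Ednrb was 0.0846 and 0.0552. Among myelin genes it was -1.22 (SE 0.30, edgeR adjusted p = 0.0209) for Cryab and -2.73 (SE 0.73, edgeR adjusted p = 0.0317) for Mal. Cryab was lost with male libraries only (edgeR adjusted p = 0.0863), and Mal in 9 of 17 alternatives, with an adjusted p of up to 0.0971.

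Among receptor genes the difference was -2.14 (SE 0.63, edgeR adjusted p = 0.0469) for Ncam1, lost in 12 of 17 alternatives with an edgeR adjusted p of up to 0.115, and 2.37 (SE 0.54, edgeR adjusted p = 0.0170) for Gfra1. Gfra1 was lost with male libraries only (0.0694) and without replicate 3 of HOIL-deficient mTEChi (0.0503) or of control mTEChi (0.0567). Gfra1 averaged 16.4 ± 6.31 CPM in HOIL-deficient cTECs and 29.3 ± 4.58 CPM in control cTECs, and 8.64 ± 2.88 CPM in HOIL-deficient mTEChi and 3.08 ± 1.66 CPM in control mTEChi.

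Among channel genes and their partners it was -3.84 (SE 1.00, edgeR adjusted p = 0.0288) for Kcna6, 4.24 (SE 0.95, edgeR adjusted p = 0.0152) for Kcna3 and -2.36 (SE 0.54, edgeR adjusted p = 0.0161) for Lgi4. Kcna6 rests on 2 counts in control cTECs and was lost in 6 of 17 alternatives, with an edgeR adjusted p of up to 0.0811, and Kcna3 was lost with male libraries only (0.0506). Lgi4 was at 21.2 ± 5.74 CPM in HOIL-deficient cTECs and 12.8 ± 4.02 CPM in control cTECs. For Nefh, the heavy neurofilament gene, it was 4.89 (SE 0.87, edgeR adjusted p = 0.00580), on 2 counts in HOIL-deficient cTECs. Among dendritic cell and macrophage genes it was -2.34 (SE 0.51, edgeR adjusted p = 0.0136) for Lyz2, lost with male libraries only (0.0545), and -2.37 (SE 0.68, edgeR adjusted p = 0.0408) for Fcer1g, lost in 13 of 17 alternatives with an edgeR adjusted p of up to 0.161. Fabp7, Foxd3, L1cam, Lgi4 and Nefh passed in all 17 alternatives. No cause was tested.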

How the results depend on the processing

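Of 567 alternative values of the log2 fold changes of the 8 genes, 565 stayed within 1 SD between replicates. The SD was that of the most variable group compared, on log2 of CPM + 0.1. The exceptions were Mbp in control mTEChi over control cTECs, at 2.07 with RLE size factors and 2.07 with DESeq2, against 1.87. The limit is lenient, since this SD is wide for genes near 0 counts such as Cdh19. Some alternatives also left out a library outside the comparison, which enters it only through the shared fit. Values near 0 changed sign for S100b, Erbb3 and Cdh19: S100b in mTEChi ran from -0.05 to 0.30, Erbb3 in mTEChi from -1.24 to 0.07 and the difference of the Cdh19 effects from -0.49 to 0.74. Genes passing among all tested fell to 1540 with male libraries only and 1395 with only the groups compared for HOIL-deficient against control cTECs, against 2342, and were 1340 to 2409 when 1 library was left out (1340 without control cTEC replicate 3, 1445 without HOIL-deficient cTEC replicate 2). For mTEChi the count was 3858 and 1944 to 4395 with 1 library left out (2558 and 2343 without HOIL-deficient replicate 1 or 2, 1944 and 2279 without control replicate 1 or 3). For the difference of the effects it was 1908, 1030 with male libraries only and 949 to 2088 with 1 library left out (1256 without control cTEC replicate 3, 1182 without HOIL-deficient mTEChi replicate 3, 1172 and 949 without control mTEChi replicate 1 or 3). Of both Schwann lists 7 genes passed for that difference, and 4 to 9 with 1 library left out (4 without control mTEChi replicate 1 or 3); 11 passed in cTECs (10 to 13), 6 in mTEChi (5 to 6) and 22 between control cell types (21 to 25). The cause was not tested. With the replicate block 1799, 3288, 1484 and 12089 genes passed for cTECs, mTEChi, the difference and control cell types, and 11, 6, 6 and 22 of the Schwann lists. Same-numbered libraries correlated at -0.16 to 0.098. Between HOIL-deficient cTECs and mTEChi they correlated at 0.0494, 0.0781 and 0.0348, against at most -0.00182, -0.0295 and 0.0189 for other numbers. Between control cTECs and mTEChi only replicate 2 was higher (0.098 against -0.0407), and between genotypes none was. Whether cTECs and mTEChi of a number came from the same mouse is not stated, and correlations this low cannot decide it. With RLE size factors the median over all genes shifted by -0.14 for the difference and 0.19 for control cell types, and higher calls made 45.0% for the difference (46.4% with DESeq2), against 60.7%, and 47.0% for mTEChi (46.2% with DESeq2), against 56.8%. At these depths a level under 3 counts over a group cannot be told from 0.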

Other observations

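Of 15 tested neuron and axon genes none rose and 1 fell in HOIL-deficient cTECs, and 1 rose and none fell in HOIL-deficient mTEChi. Stmn2, a tubulin-binding protein of growing axons, was at 75.5 ± 14.2 CPM in HOIL-deficient mTEChi and 14.1 ± 0.884 CPM in control mTEChi, a log2 fold change of 2.36 (SE 0.34, edgeR adjusted p = 7.42e-04). Nefh had 2 counts in HOIL-deficient cTECs and 39 in control cTECs, a ratio of 0.0464, with an exact 95% counting interval of 0.00543 to 0.179 (edgeR adjusted p = 0.00403), and was called in all 17 alternatives in which it was tested. The summed level was 166 to 199 CPM in HOIL-deficient cTECs and 139 to 186 CPM in control cTECs, and 263 to 356 CPM in HOIL-deficient mTEChi and 208 to 231 CPM in control mTEChi. Th and Dbh, enzymes of noradrenaline synthesis in sympathetic neurons, and Elavl4 had no count in cTECs.

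Of 9 tested genes of central glia Slc1a3, a glutamate transporter that other cells also carry, rose in both cell types and none fell. It was at 185 ± 35.3 CPM in HOIL-deficient cTECs and 91.2 ± 21.2 CPM in control cTECs, a log2 fold change of 0.94 (SE 0.21, edgeR adjusted p = 0.0111), and at 319 ± 40.4 CPM in HOIL-deficient mTEChi and 127 ± 29.9 CPM in control mTEChi, one of 1.27 (SE 0.21, edgeR adjusted p = 0.00145). Olig1, Mobp, Opalin and Ermn, which mark oligodendrocytes, had no count in cTECs. The 10 listed genes summed to 177 to 251 CPM in HOIL-deficient cTECs and 89.0 to 142 CPM in control cTECs. In mTEChi the sums were 321 to 403 CPM in HOIL-deficient and 134 to 199 CPM in control libraries, and Slc1a3 made most of every sum. Of 6 tested melanocyte genes, which share the neural crest origin of Schwann cells, none passed in either cell type by edgeR or DESeq2; at an unadjusted p under 0.05, edgeR gave 0 in cTECs and 1 (Mitf) in mTEChi. Dct, Slc45a2 and Oca2 had no count in cTECs, and the summed melanocyte level was 8.37 to 17.8 CPM in HOIL-deficient cTECs and 15.4 to 18.1 CPM in control cTECs, and 15.7 to 31.6 CPM in HOIL-deficient mTEChi and 24.5 to 34.8 CPM in control mTEChi.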
